A study of Mus musculus with 60 samples.

Results

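The 10 genes described here form the core of the G1 cell cycle engine: the D cyclins Ccnd1, Ccnd2 and Ccnd3, the E cyclins Ccne1 and Ccne2, the cyclin-dependent kinases Cdk4, Cdk6 and Cdk2, and the retinoblastoma (Rb) family members Rb1 and Rbl1. The list is one of gene names, and the rule for it uses no measured value, but it was drawn up with earlier results of these data known. All 10 were among the 19355 genes listed for the cultured cells and the 17473 genes listed for the livers. Tests were limited to genes that reached 1 FPKM (fragments scaled by transcript length and library depth) in 3 or more samples of a table, which held for all 10 in the cells and for 9 in the livers, where Ccne2 stayed lower. In the cells Ccne2 reached it only through the 2 groups in which it was highest, day 3 and mouse-1 P35 IL6-iHPCs, and in the livers Rbl1 reached it only through day 3, day 7 and 1 library at 24 h. A call of either gene in a comparison with those groups is a description, and the counts are given without it.

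In early G1, D cyclins bind Cdk4 and Cdk6, and these complexes begin the phosphorylation of the Rb proteins, which otherwise hold E2F transcription factors inactive. E2F factors then drive the E cyclins and Rbl1 along with the genes of DNA replication, and cyclin E with Cdk2 completes the phosphorylation of Rb. Hepatocytes of the adult liver rest outside the cycle, and the accumulation of cyclin D1 is the classical sign that they pass the G1 restriction point during regeneration.

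The study asked how interleukin 6 (IL6) lets mouse hepatocytes expand in culture, and set the cultures beside liver regenerating after surgery. RNA sequencing covered 11 groups of cultured or freshly isolated cells and 6 groups of whole liver, each with 3 samples. The mice were C57BL/6 animals of 8 to 10 weeks (C57BL/6J in the study's methods), and the labels give every sample, clone-1 included, as wild type. The methods also describe single-hepatocyte clones from Albumin-Cre mice with a tdTomato reporter, so for clone-1 the genotype is given as labelled only. The starting cells were primary hepatocytes, freshly isolated by perfusion. IL6-induced hepatic progenitor cells (IL6-iHPCs) were hepatocytes kept in a medium with IL6, epidermal and hepatocyte growth factors, dexamethasone and insulin-transferrin-selenium; they were taken at day 3 and day 14 before any passage (IL6-iHPCs-D3 and IL6-iHPCs-D14, P0) and as 4 passaged cultures, namely mouse-1 at passage 10 and passage 35 (P10, P35), mouse-2 at P10, and clone-1, grown from a single hepatocyte, at P20. IL6-induced mature hepatocytes (IL6-iMHs) came from each of these 4 cultures after 7 days in a maturation medium with oncostatin M and dexamethasone, whose listed components hold no IL6 and neither growth factor, so medium and maturation cannot be told apart. No group cultured without IL6 was analysed here. The livers were untreated (normal liver) or were taken 6 h, 24 h, 3 days, 7 days and 14 days after 2/3 partial hepatectomy (PHX-6h, PHX-24h, PHX-D3, PHX-D7 and PHX-D14). The 3 samples of a cell group were technical repeats of 1 culture, and the labels do not say that the 3 livers of a group came from separate mice, so the p-values measure the spread between these samples only.

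The reads recovered per library numbered 49.3M to 88.8M in the cells and 52.0M to 79.2M in the livers. Freshly isolated hepatocytes had a summed level of 7 hepatocyte markers of 76760 to 82850 FPKM, the IL6-iHPC groups 2302 to 13930 and the IL6-iMH groups 60380 to 83840, while 5 biliary and progenitor markers summed to 3.84 to 3.94 FPKM in hepatocytes and reached 10980 in the IL6-iHPCs. Cyp2e1, a hepatocyte enzyme, was below 0.1 FPKM in all 6 IL6-iHPC groups and in the clone-1 IL6-iMHs. The clone-1 labels were contradicted by the data: 4 Y-linked genes summed to 33.9 to 38.7 FPKM in the libraries labelled IL6-iHPCs-clone-1 and to 0 in those labelled IL6-iMHs-clone-1, which goes against their labels as 1 line. Differences between these libraries are therefore differences between 2 sets of libraries labelled clone-1 and may not be changes within a line. The counts of members and of list genes called in averages over the cultures are given with and without clone-1. The Y-linked sum was 5.46 to 7.21 FPKM in hepatocytes, 53.4 to 81.4 at day 3 and day 14 and at most 0.0157 in the mouse-1 and mouse-2 cultures, so these cultures differed from the P0 cultures in these genes as well as in passage. Of the macrophage markers, Clec4f, Vsig4, Timd4, Marco, Adgre1 and Ccr2 were each below 0.1 FPKM in all 10 cultured groups, and 6 red blood cell genes summed to 107 to 124 FPKM in the fresh hepatocytes. All 9 macrophage markers together summed to 17.6 to 20.8 FPKM in hepatocytes, 21.6 to 27.2 at day 3, 3.72 to 4.52 at day 14, 5.25 to 9.95 in the P35 and clone-1 IL6-iHPCs, 14.9 to 20.2 in the IL6-iMHs of both, and 0.177 to 1.52 in the other cultures. The sum of 7 stellate cell and fibroblast markers was 0.647 to 0.954 FPKM in hepatocytes, 0.561 to 1.08 at day 3, at least 24.8 at day 14, 10.2 to 19.4 in the mouse-1 P10 IL6-iHPCs, 3.43 to 5.26 in the other passaged IL6-iHPCs and at most 0.611 in the IL6-iMHs. Among them Dcn, a matrix proteoglycan, rose by 4.06 log2 units at day 14 and fell by 2.48 on maturation. The part of these cells in the values below was not tested. The median gene also stood higher in the cultures than in hepatocytes on the deposited scale, by 1.14 at day 3, 1.00 at day 14, 0.93 in the passaged IL6-iHPCs and 0.46 in the IL6-iMHs, in log2 units. For that reason the changes against hepatocytes are set beside this shift. Counts are repeated after quantile normalization, which gives every library the same distribution of values.

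Before the values, the start regions of Cdk4, Cdk6 and Rbl1 are shown. They were picked by the values below: the kinases bind the same cyclins yet moved apart, and Rbl1 had the largest change between passages. The part of these sequences in the values was not tested. RefSeq start windows on GRCm38.p6, from 250 bases before to 50 bases after a transcription start, matched 6 of the 10 genes (7 windows, of which Ccnd3 had 2): Cdk4, Cdk6, Cdk2, Ccne1, Ccnd3 and Rbl1. They are given 5′ to 3′ on the strand of the gene. Capitals mark CACGTG, the E-box bound by Myc and its relatives, in the kinases, and TTTCGCGC, one form of the E2F site, in Rbl1. The windows lie at chr10:127063285-127063584 (plus strand) for Cdk4, chr5:3343643-3343942 (plus strand) for Cdk6 and chr2:157204485-157204784 (minus strand) for Rbl1. The Cdk6 window lies inside the gene span of chr5:3341004-3531008, so its start is not the first base of that span.
Cdk4: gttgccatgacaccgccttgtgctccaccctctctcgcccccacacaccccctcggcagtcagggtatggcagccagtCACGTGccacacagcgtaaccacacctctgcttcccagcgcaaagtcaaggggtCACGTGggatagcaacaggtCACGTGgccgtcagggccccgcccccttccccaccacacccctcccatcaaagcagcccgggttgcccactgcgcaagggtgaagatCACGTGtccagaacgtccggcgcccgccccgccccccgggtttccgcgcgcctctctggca
Cdk6: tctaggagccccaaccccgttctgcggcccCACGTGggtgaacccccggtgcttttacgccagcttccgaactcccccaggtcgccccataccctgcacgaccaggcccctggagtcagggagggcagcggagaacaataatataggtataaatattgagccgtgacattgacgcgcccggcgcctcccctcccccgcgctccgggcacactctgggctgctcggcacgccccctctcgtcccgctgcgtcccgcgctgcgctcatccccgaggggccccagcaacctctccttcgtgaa
Rbl1: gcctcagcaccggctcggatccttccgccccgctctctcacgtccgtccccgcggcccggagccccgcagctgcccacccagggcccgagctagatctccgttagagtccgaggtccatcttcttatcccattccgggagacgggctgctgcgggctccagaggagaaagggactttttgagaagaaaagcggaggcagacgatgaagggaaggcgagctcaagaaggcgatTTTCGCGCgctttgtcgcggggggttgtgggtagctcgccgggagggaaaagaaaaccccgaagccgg

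The Cdk4 window held 4 copies of CACGTG, at positions -172 to -167, -118 to -113, -98 to -93 and -11 to -6 from the start. Among 32851 mouse windows of this length, 2349 (7.15%) held at least 1 copy and 8 (0.0244%) held at least 4. The Cdk6 window held 1 copy, at -220 to -215. The Rbl1 window held TTTCGCGC once, at -18 to -11, as did 106 of all windows (0.323%); this form or TTTGGCGC was found in 267 (0.813%). Both strands were searched, CACGTG reads the same on both, and no E-box or E2F match overlapped another motif searched. The Ccne1, Cdk2 and Ccnd3 windows held none of these letters and differed only in copies of the GC box GGGCGG, which 35.7% of all windows held. A match in letters is a description and not a measured site, and binding was not measured in the files used here.

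Ccnd1, the D cyclin most tightly tied to growth factor signals, had the widest range of the 10 genes across the cell groups, 127-fold between the lowest and highest group means. Its level was 2.16, 2.21 and 2.33 FPKM in hepatocytes, 12.1, 10.8 and 13.6 at day 3, and 69.5, 53.6 and 60.5 at day 14. In the passaged IL6-iHPCs it was 73.7, 65.4 and 68.4 in mouse-1 P10, 90.7, 92.9 and 88.3 in mouse-2 P10, 281, 273 and 227 in clone-1 P20, while mouse-1 P35 held 281, 283 and 285. The samples of every IL6-iHPC group lay above all 3 hepatocyte samples. The day 14 and mouse-1 P10 values overlapped, as did those of mouse-1 P35 and clone-1 P20, whereas the groups between these pairs were separated. The matured cells stood between: 28.7, 22.9 and 25.9 FPKM in mouse-1 P10, 22.0, 23.1 and 19.96 in mouse-2 P10, 59.2, 57.2 and 55.6 for clone-1 and 45.4, 43.2 and 47.6 for mouse-1 at P35, each below the IL6-iHPCs labelled as the same culture and above hepatocytes and day 3.

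Ccnd2 and Ccnd3, the other D cyclins, followed different courses. Ccnd2 was near the floor in hepatocytes, at 0.309, 0.369 and 0.355 FPKM, and reached 14.8 ± 1.11 (SD, n = 3) at day 3, 28.1 ± 2.01 at day 14 and 41.1 ± 0.916 in mouse-2 P10, its highest group. The lowest Ccnd2 of the IL6-iHPCs was in the libraries labelled clone-1, 11.8 ± 1.39 FPKM; those labelled IL6-iMHs-clone-1 had 25.6 ± 1.64, though the Y-linked genes set these 2 sets apart. Ccnd3 was the most abundant D cyclin in hepatocytes, at 16.5, 14.8 and 12.9 FPKM. The range of Ccnd3 was only 5.04-fold over all cell groups, with hepatocytes the lowest. Its highest level was not in a progenitor culture but in the matured mouse-1 P35 cells, at 68.4, 72.9 and 81.1 FPKM, against 44.9, 48.1 and 43.9 in the IL6-iHPCs they came from.

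The make-up of the D cyclins differed between resting, growing and matured cells. On the per-length scale of FPKM, Ccnd3 made up 85.0% ± 2.12 of the summed D cyclins in hepatocytes and Ccnd1 13.03% ± 1.80 (n = 3). By day 3 the shares were 51.0% for Ccnd3, 26.9% for Ccnd2 and 22.1% for Ccnd1, and by day 14 Ccnd1 led with 50.5% ± 2.43. In passaged IL6-iHPCs Ccnd1 made up 56.2% (mouse-2 P10) to 86.0% (clone-1), with 77.9% ± 0.489 at P35 of mouse-1. After maturation Ccnd3 again held the largest share in mouse-1 P10 (49.9%), mouse-2 P10 (62.2%) and mouse-1 P35 (55.7%), but not in the libraries labelled clone-1, where Ccnd1 held 53.2%. The summed level was 17.3 ± 1.72 FPKM in hepatocytes, 363 ± 3.30 in mouse-1 P35 IL6-iHPCs and 72.7 to 133 FPKM in the matured groups. These shares are descriptions without a test.

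**Figure D1:**
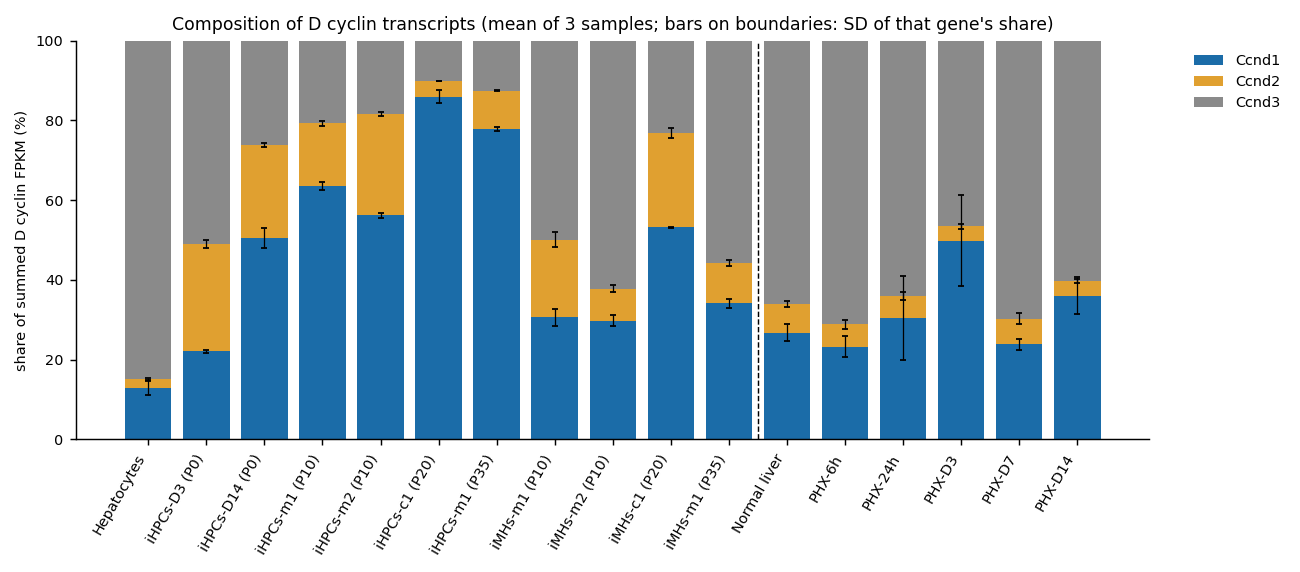
Share of Ccnd1, Ccnd2 and Ccnd3 in their summed FPKM, in percent, as stacked bars of group means (n = 3 samples each) for the cell groups to the left of the dashed line and the liver groups to the right; error bars are the SD of the share, and m1, m2 and c1 are mouse-1, mouse-2 and clone-1. Ccnd3 makes up 85.0% in hepatocytes and 12.6% in mouse-1 P35 IL6-iHPCs, and returns to 55.7% in the matured cells of that line.

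Ccne1, which with Cdk2 carries the cell from G1 into S phase, was 0.226, 0.389 and 0.181 FPKM in hepatocytes. It was 8.90, 7.74 and 10.9 at day 3, lower at day 14 (4.33, 4.51 and 3.72), and highest in mouse-1 P35 IL6-iHPCs, at 24.1, 22.5 and 22.9 FPKM. The 3 samples of mouse-1 P35 lay above those of every other group, and 6 neighbouring groups between 2.76 and 4.26 FPKM, among them 3 of the 4 matured groups, ran into one another. Ccne2, its paralog, was the lowest of the 10 genes: 5 reads in each hepatocyte library (0.0225 to 0.0310 FPKM), 1.38 ± 0.0838 FPKM at day 3 and 1.498 ± 0.0815 in mouse-1 P35. In the matured groups Ccne2 was at 0.0484 to 0.224 FPKM, with 0 reads in 1 mouse-2 library, a count that allows up to 3 reads.

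The kinases differed in where they stood highest. Cdk4, a partner of the D cyclins, was already abundant in hepatocytes at 27.3, 24.7 and 26.1 FPKM and reached 99.4, 102 and 94.0 at day 3, 131, 127 and 125 at day 14 and 275, 262 and 262 in mouse-1 P35. Its levels in the P10 cultures were lower than at day 14, 53.5 ± 0.586 in mouse-1 and 70.5 ± 2.44 in mouse-2. Cdk6, its paralog, was at 0.603, 0.731 and 0.520 FPKM in hepatocytes, highest at day 3 (18.9, 19.5 and 20.6), between 7.38 and 17.6 in the other IL6-iHPC groups and between 1.18 and 4.27 in the matured ones. The ratio of Cdk4 to Cdk6 was thus 43.1 ± 8.39 in hepatocytes, 5.02 ± 0.398 at day 3, 18.5 ± 0.751 in mouse-1 P35 and 71.7 ± 9.39 in matured mouse-2 cells. Cdk2, the partner of the E cyclins, was 4.42, 4.30 and 4.18 FPKM in hepatocytes, 18.7 ± 0.912 at day 3 and 36.9 ± 1.82 in mouse-1 P35. It was the 1 gene whose lowest group was not hepatocytes: matured mouse-1 P10 cells had 4.01, 3.84 and 3.60 FPKM, all 3 below the hepatocyte samples.

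The Rb family transcripts were lowest in hepatocytes. Rb1, which binds the activating E2F factors, was 0.514, 0.667 and 0.353 FPKM in hepatocytes, 11.8 ± 1.07 at day 3, 10.7 ± 0.925 at day 14 and 4.58 to 6.83 in the passaged IL6-iHPCs. Rbl1 (p107), itself an E2F target that binds the repressive E2F factors, was 0.254, 0.261 and 0.191 FPKM in hepatocytes and 5.18, 4.72 and 5.57 at day 3. In the passaged cultures it was 1.51, 1.29 and 1.66 in mouse-1 P10, 14.7, 14.5 and 15.5 at P35 of the same line, and 9.04, 9.10 and 6.86 in clone-1. Day 3 and day 14 were thus the highest groups for Rb1, whose samples overlapped between these 2 days, and mouse-1 P35 was the highest for Rbl1. The matured mouse-2 cells overlapped hepatocytes for Rbl1, with 0.324, 0.432 and 0.243 FPKM.

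**Figure D2:**
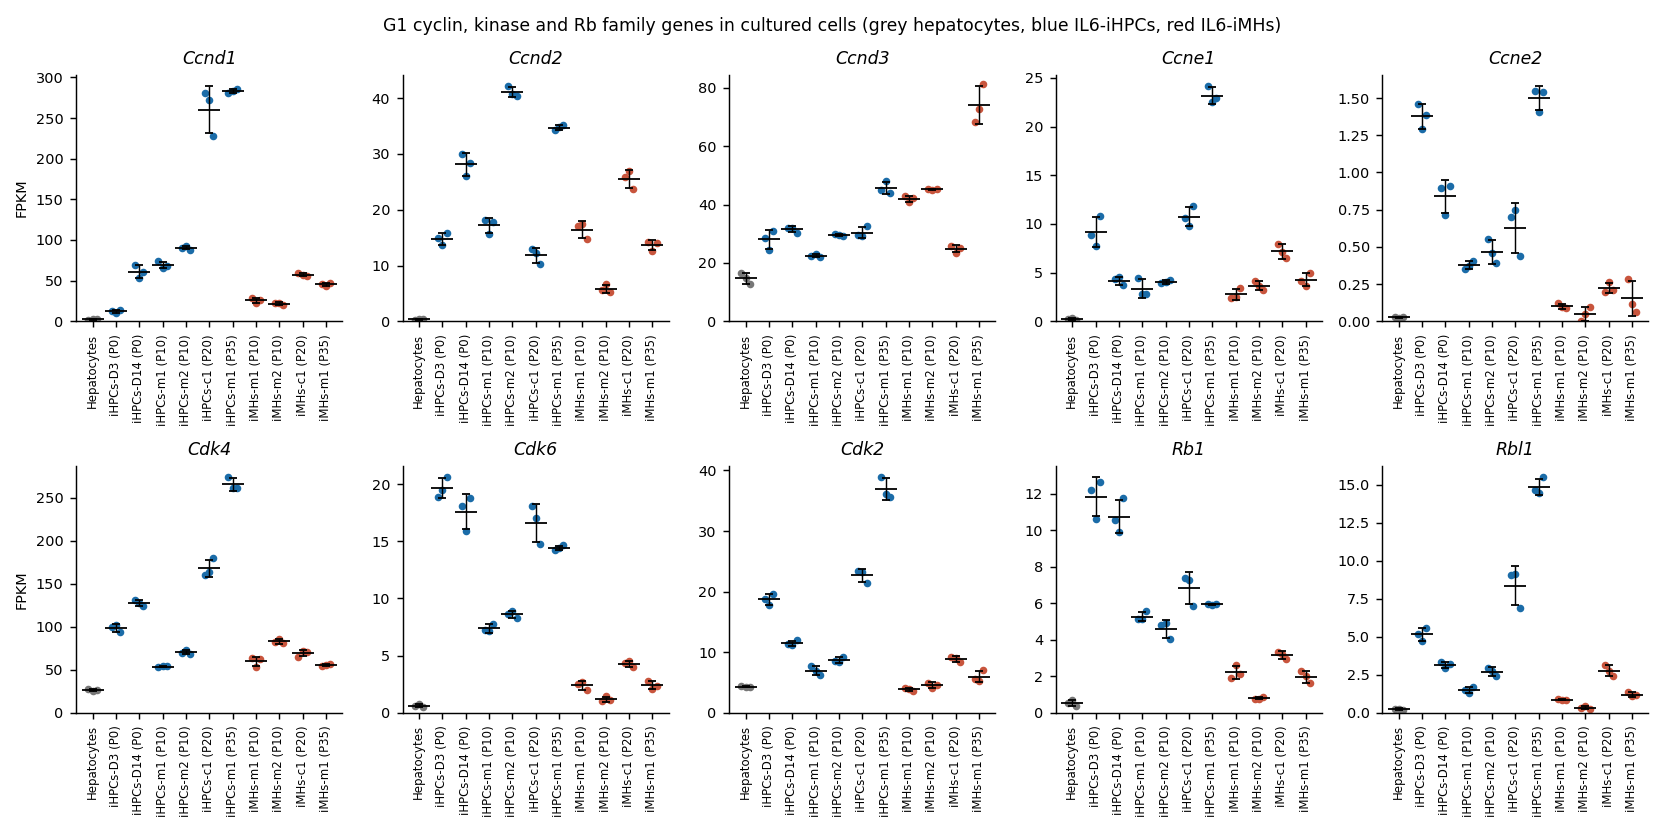
FPKM of each of the 10 genes in the 11 cell groups, on linear axes from 0 with a scale of its own per gene; points are the 3 samples, bars the mean and SD, and m1, m2 and c1 are mouse-1, mouse-2 and clone-1. For all 10 genes the 6 IL6-iHPC groups lie above the hepatocytes, and Ccnd3 alone is highest in a matured group (74.1 FPKM in mouse-1 P35).

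On the deposited scale the IL6-iHPCs had more of nearly the whole set than hepatocytes, and the median gene was higher on that scale as well. A gene was called changed where limma gave an adjusted p under 0.05 over all genes tested and the change was at least 2-fold on the log2(FPKM + 1) scale, which understates the change of low genes. At day 3, 9 of 10 members rose, against 66.0% of all genes called in either direction and 53.9% called higher. Ccne2 entered the test through day 3 itself, and of the other 9 members 8 were called. The largest rises on the log2(FPKM + 1) scale were Cdk6 (3.68 ± 0.0870 SE, limma adjusted p = 9.46e-26), Ccnd2 (3.55 ± 0.0828) and Rb1 (3.09 ± 0.0960), while Ccnd3 (0.88) stayed under 2-fold. By the ratio of group means, which adds no pseudocount, the order was Ccne2 (52.2-fold), Ccnd2 (42.8), Ccne1 (34.5), Cdk6 (31.8) and Rb1 (23.1). The median of the members was 2.17 (2.315 without Ccne2), beside 1.14 for all genes. After quantile normalization 6 members remained called, against 48.1% of genes, and Ccnd1 (0.52), Ccne2 (0.44) and Cdk2 (0.59) no longer reached 2-fold. All samples lay above all hepatocyte samples for all 10 members, not only at day 3, where 72.6% of genes did so, but also at day 14 (72.0%), in mouse-1 at P10 (65.6%) and P35 (74.4%), in clone-1 (74.8%) and in mouse-2 P10 (67.7%). Without Ccne2 this held for 9 of 9 members in each of these groups.

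At day 14, 9 of 10 members were called, all higher, against 62.9% of genes called, of which 6163 of 7758 were higher, with Ccnd2 (4.44 ± 0.0828) and Ccnd1 (4.26 ± 0.0882, limma adjusted p = 3.58e-27) now in front and Ccne2 (0.84) under 2-fold on this scale. Without the third hepatocyte sample Ccnd3 was at 0.97 and 8 members and 7552 of 12174 genes were called. By the ratio of group means Ccne2 was 31.8-fold higher, and Ccnd1 27.4-fold and Ccnd2 81.6-fold. The members' median was 2.14 beside 1.00 for all genes. Voom on recovered reads called all 10 members (73.9% of genes), with Ccne2 at 4.87, and a pseudocount of 0.1 gave Ccne2 2.89. After quantile normalization 5 were called, against 47.9%, and the Cdk2 change of 1.24 as deposited stood at -0.0022. In the passaged IL6-iHPCs, averaged over the 4 cultures, 9 of 10 were higher, against 59.4% of genes in either direction and 48.1% higher: Ccnd1 led with 5.51 ± 0.0697, followed by Ccnd2 (4.18) and Cdk6 (2.91), and the members' median was 2.21 beside 0.93 for all genes. Quantile normalization left 6 of these calls, against 41.6%, and without clone-1 there were again 9, against 58.5%. Without the third hepatocyte sample there were 8, against 58.4%, Ccnd3 standing at 0.94. Voom called 10 (71.9% of genes), adding Ccne2 (4.48), and 9 of the other 9. Without Ccne2 the members' median by limma was 2.29. These 3 comparisons share the same hepatocyte samples.

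Between day 3 and day 14, 1 member rose, Ccnd1 by 2.24 ± 0.0882 (limma adjusted p = 4.30e-19), against 10.2% of genes called. Ccne1 was 0.96 lower at day 14 and Cdk2 0.66 lower, both with limma adjusted p under the threshold but under 2-fold. After quantile normalization Ccnd2 (1.24) was called beside Ccnd1, against 1359 of 12328 genes. In mouse-1 P10, 2 members were lower than at day 14, Cdk4 by 1.24 and Cdk6 by 1.15, against 16.2% of genes. The day 14 and mouse-1 P10 cultures also differed in the Y-linked genes, so these differences may not be changes within 1 line. At P10, mouse-2 differed from mouse-1 in 1 member, Ccnd2, which was 1.21 ± 0.0828 higher (limma adjusted p = 6.10e-13), against 4.05% of genes called. Quantile normalization left these counts at 2 (15.8% of genes) and 1 (4.11%).

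In the wider pathway at day 3 the counts are read against the 53.9% of all genes that were called higher. Among 7 CDK inhibitors 3 were higher and 0 lower, led by Cdkn1a (p21), a p53 target, with 5.56, and Cdkn1b (p27) with 2.69. Of 19 replication genes under E2F 15 were higher and 1 lower; Dbf4, the activator of the Cdc7 kinase, rose by 3.88 and Tk1, a thymidine kinase, fell by 1.92. Of 12 inducers of D cyclins 7 rose and 1 fell, with Myc up by 5.81 and Fos down by 1.66. After quantile normalization these counts were 2 higher and 3 lower for the inhibitors, 5 higher and 3 lower for the replication genes and 6 higher and 2 lower for the inducers, so the counts depended on the scale. At day 14 the largest rise among the inhibitors was Cdkn2b (p15), a blocker of Cdk4 and Cdk6, with 6.01.

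**Figure D3:**
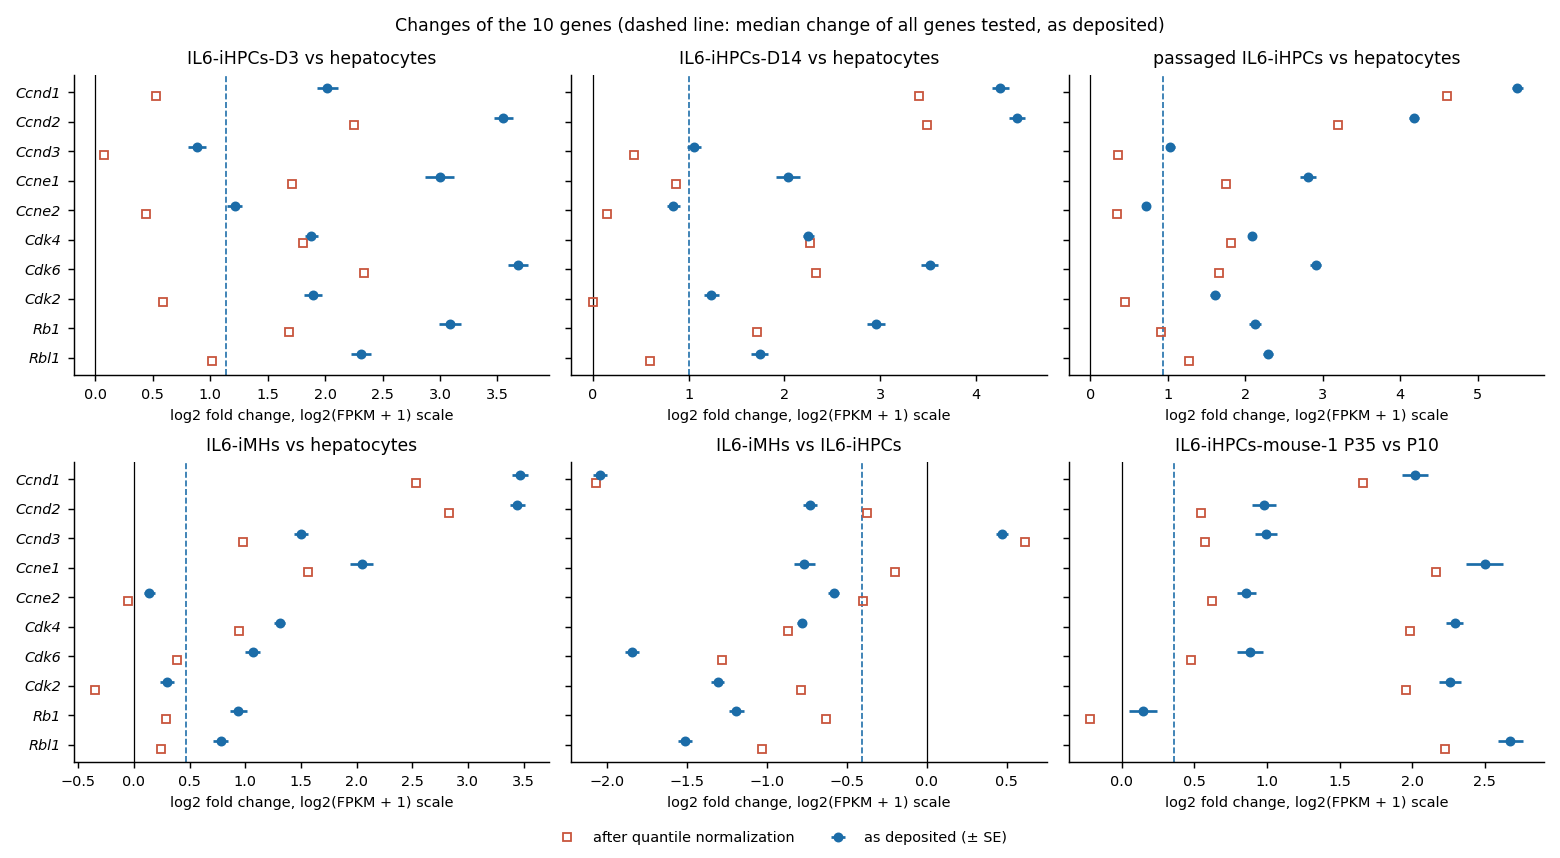
Change of each of the 10 genes in 6 comparisons, in log2 units on the log2(FPKM + 1) scale; filled points with SE bars are the limma estimates on the deposited values, open squares those after quantile normalization, and the dashed line is the median change of all genes tested. By the filled points, Ccnd1, Ccnd2 and Cdk6 lie right of the dashed line in all 3 comparisons of IL6-iHPCs with hepatocytes. By the same points Ccnd3 alone lies right of 0 in matured against progenitor cells.

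At P35 the E cyclin Ccne1, the kinases Cdk4 and Cdk2, Rbl1 and Ccnd1 stood higher than at P10. Between P10 and P35 of the mouse-1 line, 5 of 10 members rose, against 33.7% of genes in either direction and 24.8% higher: Rbl1 by 2.68 ± 0.0871 (limma adjusted p = 1.00e-21), Ccne1 by 2.50 ± 0.128, Cdk4 by 2.29 ± 0.0594, Cdk2 by 2.26 ± 0.0788 and Ccnd1 by 2.02 ± 0.0882. Ccnd2 (0.98), Ccnd3 (0.99), Cdk6 (0.88) and Ccne2 (0.86) stayed under 2-fold on this scale, and Rb1 differed by 0.15 (limma adjusted p = 0.154). Voom on recovered reads called 8 (44.9% of genes), adding Ccnd2 (1.02), Ccnd3 (1.02) and Ccne2 (1.98), the last at 0.379 FPKM at P10 and 1.498 at P35. Since Ccne2 entered the test through P35, the counts without it are given too: 5 of 9 by limma and 7 of 9 by voom. The same number, 5, was called after quantile normalization, against 27.9% of genes. The members' median was 1.51 (2.02 without Ccne2) beside 0.36 for all genes. Several marker sums also differed without overlap. Hepatocyte markers summed to 11210 to 12800 FPKM at P10 and 2302 to 2375 at P35, and biliary and progenitor markers to 7409 to 8438 and 2699 to 2794. Stellate cell and fibroblast markers were lower at P35 (4.60 to 5.26, from 10.2 to 19.4), and macrophage markers higher (5.25 to 6.26, from 0.797 to 1.52). Their part in these values was not tested. P10 and P35 are 1 culture each, so passage and culture cannot be told apart.

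In the wider pathway at P35 the counts are read against the 24.8% of all genes called higher. All 5 mitotic genes tested rose, led by Ccnb1 (6.13) and Ccna2 (5.52), the cyclins of mitosis and of S phase (Ccna2 is also on the replication list), as did 18 of 19 replication genes, with Mcm5, a subunit of the replicative helicase, at 5.003. Of 15 E2F and DREAM genes 9 rose, led by the repressors E2f8 (3.74) and E2f7 (3.07). Of 7 CDK inhibitors 3 rose, among them Cdkn2d (2.67) and Cdkn2c (2.08). After quantile normalization, with 14.3% of genes called higher, these counts were 5 for the mitotic genes, 18 for the replication genes, 7 for the E2F and DREAM genes and 2 for the inhibitors. Mouse-1 P10 stood apart in this respect: its mitotic genes summed to 4.03 to 6.34 FPKM, below the 6.97 to 7.32 of hepatocytes, beside Ccnd1 at 69.2 FPKM, whereas at P35 they summed to 302 to 313 FPKM. Clone-1 P20, compared with mouse-1 P10, had 6 members higher, against 28.6% of genes called, with Rbl1 (1.90), Ccnd1 (1.89) and Cdk4 (1.63) in front, and 5 after quantile normalization, against 25.5%.

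Between IL6-iHPCs and IL6-iMHs, Ccnd1 and Cdk6 fell in mouse-1 P10, mouse-2 P10 and mouse-1 P35 and were lower in the matured libraries labelled clone-1. Averaged over these 4 cultures, 5 of 10 fell from IL6-iHPCs to IL6-iMHs, against 28.1% of genes in either direction and 21.4% lower: Ccnd1 by 2.05 ± 0.0441 (limma adjusted p = 1.52e-26), Cdk6 by 1.85, Rbl1 by 1.52, Cdk2 by 1.31 and Rb1 by 1.19. Ccnd3 was 0.47 ± 0.0379 higher (limma adjusted p = 1.20e-12), under 2-fold. It was higher in 3 cultures and 0.27 lower in the matured libraries labelled clone-1, and 0.72 higher on average without clone-1. Voom on recovered reads called 6 (44.1% of genes), adding Ccne2 (-2.84). Ccne2 entered the test in part through the P35 IL6-iHPCs, and of the other 9 members limma and voom each called 5. The members' median was -0.99 (-1.19 without Ccne2) beside -0.40 for all genes. After quantile normalization Ccnd1, Cdk6 and Rbl1 were still called, against 18.5% of genes. Without clone-1 there were 6 calls, the added one being Ccnd2 at -1.33, against 33.2% of genes in either direction and 24.5% lower. In the same comparison 16 of 19 replication genes fell, led by Mcm4 (-2.86), as did all 5 mitotic genes tested, with Ccnb1 at -2.50, and after quantile normalization 11 and 3 did. Of the 7 CDK inhibitors 1 fell, Cdkn2a, at -1.17. Without clone-1 these counts were 15 of the replication genes, 3 of the mitotic genes and 0 of the inhibitors.

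The IL6-iMHs did not return to the hepatocyte level in every member. Against hepatocytes 6 of 10 were called higher, against 32.6% of genes in either direction and 24.8% higher: Ccnd1 by 3.47 ± 0.0697 (limma adjusted p = 2.06e-27), Ccnd2 by 3.45, Ccne1 by 2.05, Ccnd3 by 1.501, Cdk4 by 1.31 and Cdk6 by 1.07. After quantile normalization the calls were Ccnd1, Ccnd2 and Ccne1, against 23.7% of genes, and without clone-1 there were 5, with Cdk6 at 0.85, against 29.2% of genes called. Cdk2, Rb1, Rbl1 and Ccne2 were 0.30, 0.94, 0.78 and 0.14 above hepatocytes, all under 2-fold on the log2(FPKM + 1) scale. The median gene was 0.46 higher, so Cdk2 and Ccne2 stood below that shift. Without clone-1 Cdk2 was at 0.101 (limma adjusted p = 0.141) and Ccne2 at 0.0994 (limma adjusted p = 0.078). Rb1 was then at 0.763 and Rbl1 at 0.505. Voom on recovered reads, which adds no pseudocount of 1, called 9 of 10 (52.6% of genes), with Rbl1 at 2.03, Rb1 at 1.80 and Ccne2 at 1.64. Seen by samples, 10 members lay wholly above hepatocytes in matured clone-1 (67.8% of genes did) and mouse-1 P35 cells (65.0%) and 9 in mouse-1 P10 (65.5%), where Cdk2 lay below (18.4% of genes did). In matured mouse-2 cells 7 lay above (57.1%), with Cdk2, Rbl1 and Ccne2 overlapping. In the same comparison the CDK inhibitors were higher in 6 of 7, with Cdkn1a at 4.72 and Cdkn1b at 2.29, and 6 were higher after quantile normalization and without clone-1 as well.

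By culture, the number of members called in matured against progenitor cells was 2 of 10 in mouse-1 P10 (25.0% of genes called), 5 in mouse-2 P10 (39.9%), 9 for mouse-1 at P35 (45.3%) and 6 for the libraries labelled clone-1 (23.6%). The Y-linked genes set the progenitor and matured libraries labelled clone-1 apart, so their differences may not be changes on maturation. The 9 at mouse-1 P35 include Ccne2, which entered the test through those IL6-iHPCs, and without it 8 of 9 were called. After quantile normalization the counts were 1 (22.6% of genes), 3 (32.2%), 6 (32.2%) and 4 (17.6%). Ccnd1 and Cdk6 were the members called lower in all 4 on the deposited scale, and after quantile normalization Cdk6 in mouse-1 P10, at -0.995, was just under 2-fold: Ccnd1 by 1.39, 2.02, 2.62 and 2.16 and Cdk6 by 1.31, 2.15, 2.19 and 1.74, in that order. Cdk4 differed between the cultures: it was 0.15 higher in mouse-1 P10 and 0.23 higher in mouse-2 P10, both under 2-fold, and fell by 2.25 in mouse-1 P35. It was 1.27 lower in the matured libraries labelled clone-1. Ccnd2 fell in mouse-2 (2.62) and mouse-1 P35 (1.29) and differed by -0.06 in mouse-1 P10 (limma adjusted p = 0.487). It was 1.06 higher in the matured libraries labelled clone-1 than in the progenitor ones. Ccne1 fell past 2-fold only in mouse-1 P35, by 2.21.

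Whether maturation changed the mouse-1 line differently at the 2 passages was tested by the contrast of the 2 changes. It called 6 of 10 members, all with a lower change at P35 than at P10, against 33.7% of genes in either direction and 24.1% in this direction: Rbl1 (-2.44 ± 0.123, limma adjusted p = 9.99e-17), Cdk4 (-2.40 ± 0.0840), Ccne1 (-2.01 ± 0.180), Cdk2 (-1.75 ± 0.111), Ccnd2 (-1.23 ± 0.117) and Ccnd1 (-1.23 ± 0.125). The end points lay closer than the starts: Cdk4 was 53.5 against 266 FPKM in the progenitors and 59.7 against 55.3 in the matured cells. For Rbl1 the matured cells had 0.850 and 1.19 FPKM, from 1.49 and 14.9. The contrast for Rb1 (-0.26, limma adjusted p = 0.0773) and Ccnd3 (-0.19, adjusted p = 0.108) did not pass. After quantile normalization 4 members were called, against 28.3%, Ccnd1 (-0.98) and Ccnd2 (-0.81) dropping under 2-fold. The contrast uses the same P10 and P35 progenitors as the comparison of passages.

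**Figure D4:**
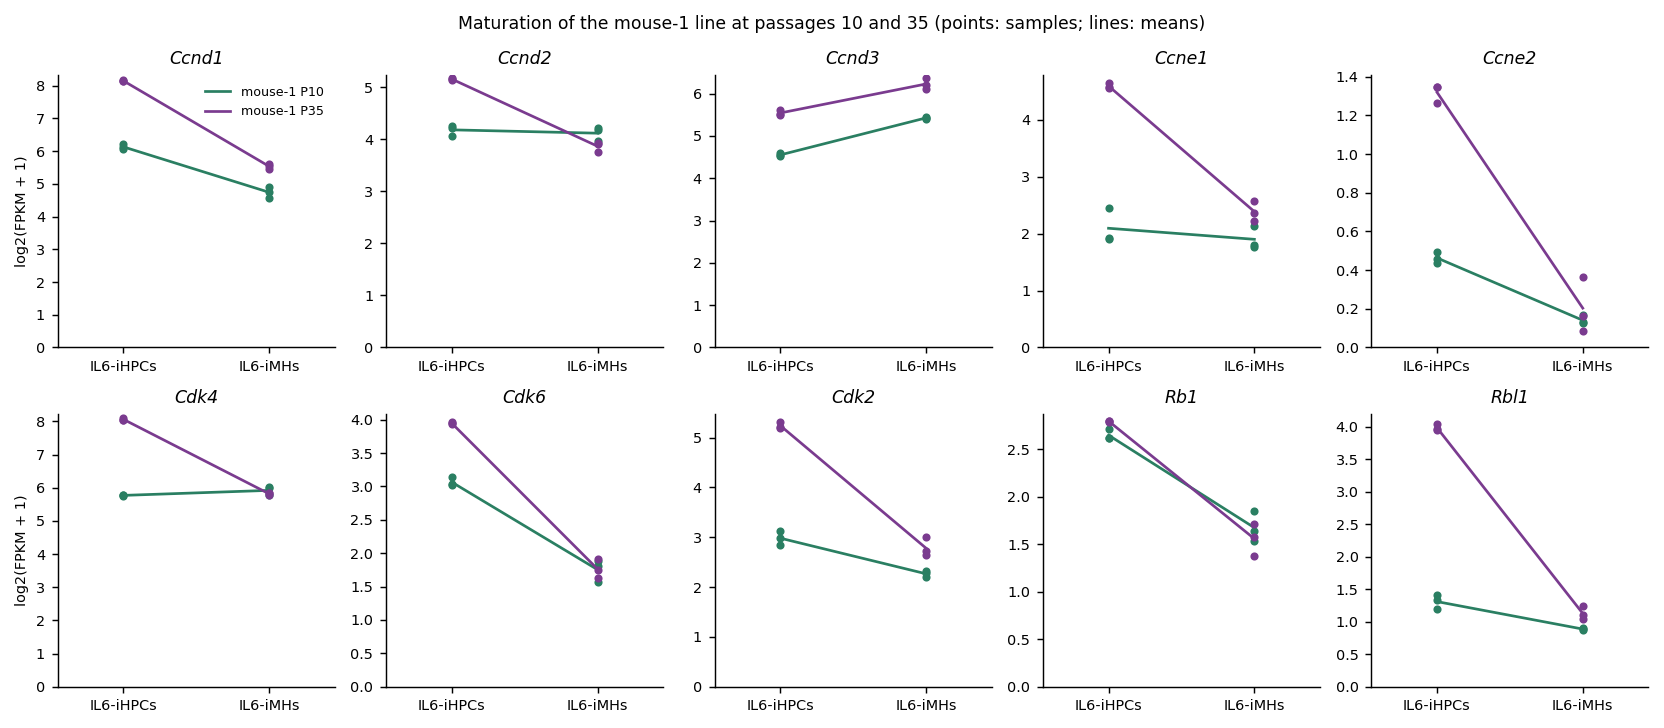
Level of each of the 10 genes, as log2(FPKM + 1) on axes from 0, in IL6-iHPCs and IL6-iMHs of the mouse-1 line at P10 (green) and P35 (purple); points are the 3 samples of a group and lines join the means. The P35 lines for Ccne1, Cdk4, Cdk2 and Rbl1 start above and end near those of P10, and Ccnd3 is higher after maturation at both passages.

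In whole liver the group means of the 9 genes tested spanned 1.72-fold (Cdk4) to 9.64-fold (Rbl1), against 5.04-fold to 127-fold for the 10 genes in the cells. Bulk tissue cannot tell fewer cells of a type from less RNA per cell, and all levels here are averages over hepatocytes and the other liver cells. Ccnd1 was 9.46, 5.71 and 7.17 FPKM in normal liver, 4.05, 4.78 and 4.93 at 6 h, 17.1, 4.72 and 16.8 at 24 h, 13.1, 23.7 and 20.9 on day 3, 12.7, 9.33 and 9.31 on day 7 and 15.3, 12.99 and 15.1 on day 14. The 6 h samples lay below all normal livers and the day 3 and day 14 samples above them. At 24 h the second library stayed at the 6 h level while the others were near those of day 3. Ccne1 was 0.939, 0.926 and 0.892 FPKM in normal liver and 1.71, 4.52 and 3.37 on day 3, and in the 24 h livers 4.18, 0.968 and 1.88, again with the second library lowest.

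Rbl1, with the widest range in liver, was 0.572, 0.440 and 0.452 FPKM in normal liver, 0.180, 0.257 and 0.309 at 6 h and 1.90, 0.394 and 0.656 at 24 h. It was then 1.75, 1.401 and 2.66 on day 3, 2.60, 2.48 and 2.12 on day 7 and 0.569, 0.329 and 0.537 on day 14. Day 3 and day 7 lay wholly above normal liver and overlapped each other, and day 14 was back among the normal samples. Cdk2 was 6.93, 6.46 and 6.36 FPKM in normal liver and 3.09, 2.78 and 2.54 at 6 h, and its day 3 to day 14 samples overlapped the normal ones. Cdk6 was also lowest at 6 h, with 2.12, 1.75 and 1.83 FPKM in normal liver and 0.797, 0.800 and 0.851 at 6 h. Unlike Cdk2, its samples then lay wholly above normal liver on days 3, 7 and 14, where the lowest samples had 2.18, 2.23 and 2.18 FPKM. Cdk4, the more abundant of these kinases, ran from 19.99 ± 2.51 FPKM at 6 h to 34.4 ± 3.70 on day 7, with overlap between all neighbouring groups.

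At 6 h no member was called, against 16.3% of genes in either direction and 11.5% lower; with limma 4 members had an unadjusted p under 0.05 (Ccnd2, Cdk6, Cdk2 and Rb1), and voom on recovered reads called 2 (27.2% of genes), Cdk6 and Cdk2. Cdk2 was 0.998 ± 0.174 lower (limma adjusted p = 0.000256), just under 2-fold, and was called at -1.01, -1.02 or -1.05 without the second normal liver, the third normal liver or the first 6 h liver. Cdk6 was 0.67 ± 0.165 lower (limma adjusted p = 0.00322). The median gene was itself 0.28 lower at 6 h, and the members' median was -0.34. Of the 9 genes tested, 6 lay wholly below normal liver at 6 h, against 48.6% of all genes. In the pathway lists Cdkn1a rose by 6.13 and Fos by 2.14, while Mcm7 fell by 1.27. Of the 9 macrophage markers 6 fell at 6 h, and their sum was 65.0 to 128 FPKM against 169 to 290 in normal liver; their part in these values was not tested.

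At 24 h no member was called, against 7.90% of genes; with limma 3 had an unadjusted p under 0.05 (Ccnd3, Ccne1 and Cdk2), and voom called 0 (12.5% of genes). Leaving out the second 24 h library gave 2 calls, Ccnd1 (1.11, limma adjusted p = 0.00375) and Ccne1 (1.01, limma adjusted p = 0.0302), against 6.15% of genes called, so this library decided the count. Compared with 6 h rather than with normal liver, 1 member rose at 24 h, Ccnd1 by 1.14 ± 0.341 (limma adjusted p = 0.0168), against 6.72% of genes called. After quantile normalization it stood at 0.86 (limma adjusted p = 0.0553) and no member was called, against 4.76% of genes. As deposited 8 members had an unadjusted p under 0.05 with limma, or 7 of 8 without Rbl1, which entered the test in part through 24 h. Voom was not run on this comparison. From 6 h to 24 h the summed hepatocyte markers were lower, 34590 to 38970 FPKM at 24 h (47600 to 55140 at 6 h), and the macrophage markers higher, 166 to 196 (65.0 to 128), both without overlap; their part in these values was not tested.

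On day 3, 2 of 9 members rose, against 5.82% of genes in either direction and 3.33% higher: Ccnd1 by 1.24 ± 0.341 (limma adjusted p = 0.0146) and Ccne1 by 1.07 ± 0.315 (adjusted p = 0.0202). Rbl1 was 0.96 ± 0.208 higher (limma adjusted p = 0.00402) and Cdk6 0.53 higher (adjusted p = 0.0265), both under 2-fold on the log2(FPKM + 1) scale. Voom on recovered reads called 3 (9.73% of genes), adding Rbl1 (1.93, limma adjusted p = 0.00532), which was 1.75 with a pseudocount of 0.1. Of the 8 members other than Rbl1, which entered the test through such livers, 2 were called by limma and by voom. The second day 3 liver stood apart from the others, with a chi-square per degree of freedom over genes of 1010 and 1200 against a median of 142 for pairs of livers of 1 group. It had the highest Ccnd1, Ccne1 and Cdk6 (4.72 FPKM) of the 3 and the highest sums for part of the marker lists: 535 FPKM for macrophages (253 and 175 in the others), 206 for stellate cells and fibroblasts (65.7 and 78.0), 147 for biliary cells (49.0 and 29.9) and 306 for red blood cells (98.7 and 39.7). Its sums were the lowest for hepatocytes, 42170 FPKM (50200 and 69530), endothelial cells, 59.3 (90.2 and 75.7), and lymphocytes, 1.86 (2.08 and 2.91). Their part in the day 3 values was not tested. The calls depended on single livers: without the second normal liver neither was called, against 4.82% of genes (Ccnd1 1.09 with limma adjusted p = 0.0626, Ccne1 1.07 with 0.0547), and Ccne1 was also lost without the third normal liver (1.06, adjusted p = 0.0581) or the second day 3 liver (0.84, adjusted p = 0.0717). Rbl1, in turn, was called without the second day 3 liver (1.09, limma adjusted p = 0.00273). By samples, 5 of the 9 genes lay wholly above normal liver on day 3 (20.2% of genes did), 6 on day 7 (39.0%) and 4 on day 14 (13.7%); without Rbl1 these counts were 4, 5 and 4 of 8. Ccnd2 lay wholly below on day 3 (19.6% of genes did) and on day 14 (3333 of 11114 genes): it was 2.32, 1.82 and 1.78 FPKM in normal liver, 1.10 to 1.55 on day 3 and 1.70, 1.62 and 1.17 on day 14. After quantile normalization Ccnd1 was called and Ccne1 (0.94) was not, against 5.34% of genes. The mitotic genes rose in 4 of 5 tested, led by Ccnb1 (2.29) and Ccnb2 (2.00), as did 6 of 16 replication genes, led by Rrm2 (2.12), the small subunit of ribonucleotide reductase, and Foxm1, an activator of mitotic genes, by 1.41.

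On day 7, 1 of 9 members rose, Rbl1 by 1.19 ± 0.208 (limma adjusted p = 0.000484), against 8.84% of genes in either direction and 7.81% higher, and after quantile normalization it stood at 0.92, under 2-fold, with 7.21% of genes called. Rbl1 entered the test through day 7 and day 3, and of the other 8 members none was called by limma or voom, with 3 at an unadjusted p under 0.05 in limma (Ccnd3, Cdk4 and Rb1). Ccnd3 was 0.72 higher (limma adjusted p = 0.00913), at 33.2, 28.6 and 29.1 FPKM against 20.6, 15.3 and 18.4 in normal liver, and Rb1 was 0.49 and Cdk4 0.45 higher, with limma adjusted p of 0.0279 and 0.0397. In the same livers 8 of 9 macrophage markers, 4 of 4 lymphocyte markers tested and 4 of 5 red blood cell genes tested rose: the summed macrophage markers were 1037 to 1515 FPKM against 169 to 290 in normal liver, and 5 lymphocyte markers 20.01 to 22.7 against 2.09 to 3.33. The 7 hepatocyte markers summed to 41220 to 47920 FPKM against 55310 to 59860. The part of these cells in the day 7 values was not tested.

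On day 14 no member was called, against 2.98% of genes; with limma 2 had an unadjusted p under 0.05 (Ccnd1 and Ccnd3), and voom called 0 (6.79% of genes). Ccnd1 was 0.89 ± 0.341 higher (limma adjusted p = 0.0875). Between day 7 and day 14, 1 member fell, Rbl1 by 1.20 ± 0.208 (limma adjusted p = 0.000466), against 7.79% of genes called, and it was not called after quantile normalization (5.23% of genes). Of the other 8 members limma called none, with 2 at an unadjusted p under 0.05 (Ccnd2 and Rb1). From day 7 to day 14 several marker sums went down as well. Day 14 values were 106 to 151 FPKM for macrophages (1037 to 1515 on day 7), 4.08 to 4.64 for lymphocytes (20.01 to 22.7) and 65.3 to 82.3 for endothelial cells (137 to 210). Stellate cell and fibroblast markers (34.73 to 52.65, from 90.81 to 151.2) and red blood cell genes (83.5 to 111.3, from 237.7 to 310.5) were also lower. The hepatocyte sum went up, to 53960 to 63420 from 41220 to 47920, and the biliary and progenitor sums overlapped. The part of these cells was not tested. Ccne2, untested in liver, had 26, 30 and 30 reads in normal liver, 94, 47 and 128 on day 3 and 15, 8 and 4 on day 14; the first 24 h library held 165 reads and the others 20 and 31.

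In liver as in hepatocytes Ccnd3 was the leading D cyclin: it made up 66.0% ± 2.07 of their sum in normal liver and 64.0% to 71.1% at 6 h, 24 h and day 7. On day 3 Ccnd1 and Ccnd3 were level, at 49.9% ± 11.5 and 46.6% ± 10.9, and on day 14 Ccnd3 held 60.3%. Ccnd2 held between 3.56% and 7.22% in all liver groups, while the cell groups ran from 2.01% in hepatocytes to 26.9% at day 3, with 3.90% in clone-1 P20 IL6-iHPCs; the cell and liver tables were processed as separate tables, and their levels are set side by side without a test. The ratio of Cdk4 to Cdk6 was 13.2 ± 2.41 in normal liver, 24.5 ± 2.42 at 6 h and 9.99 ± 2.44 on day 3.

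**Figure D5:**
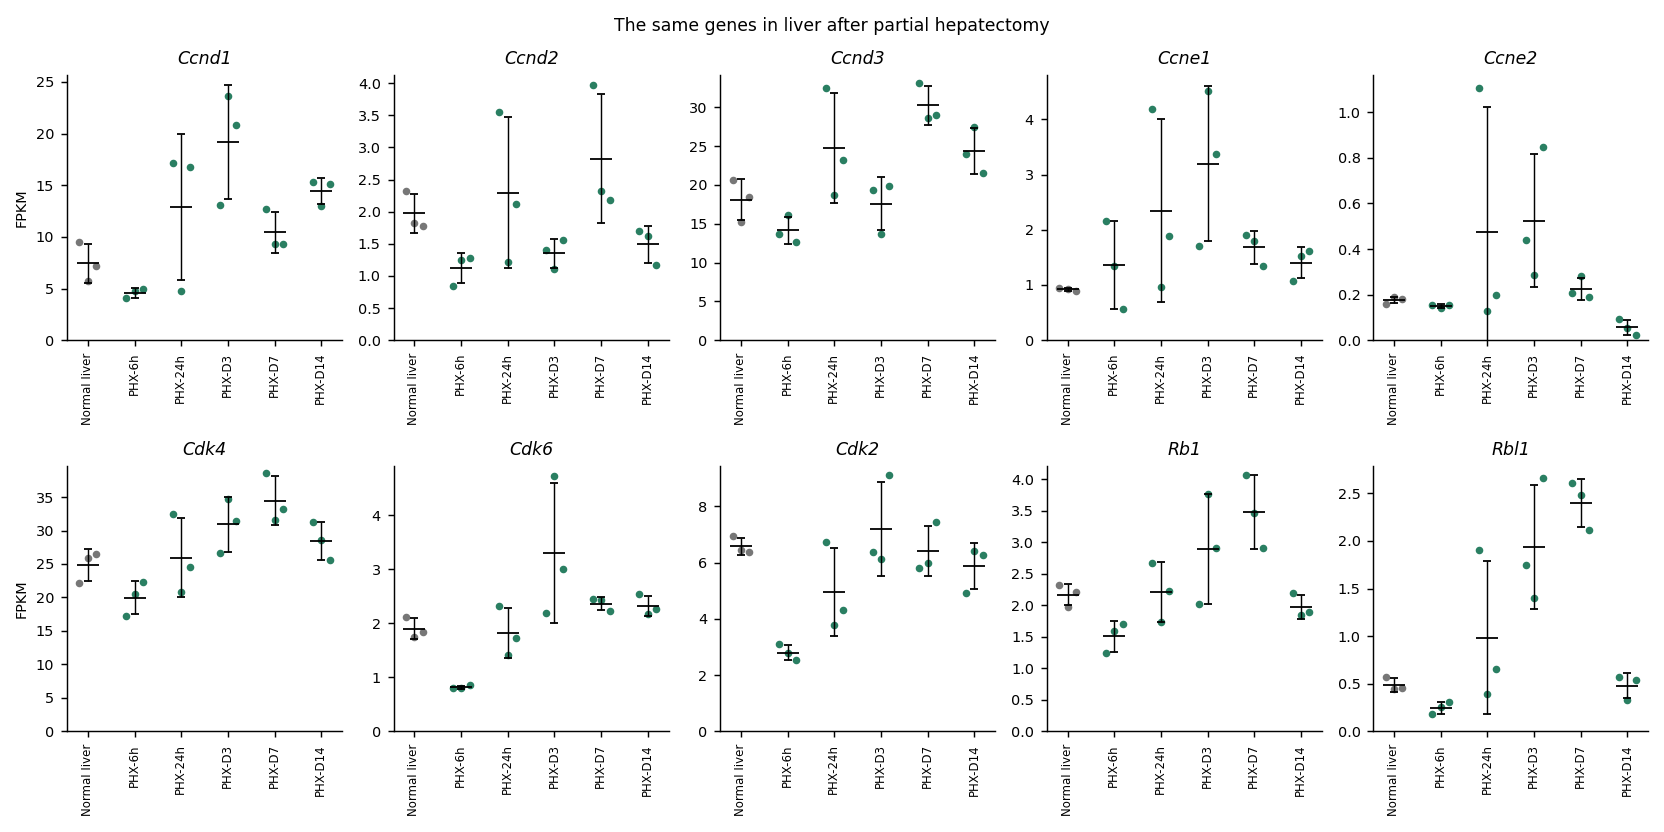
FPKM of each of the 10 genes in normal liver and after partial hepatectomy, on linear axes from 0 with a scale of its own per gene; points are the 3 samples, bars the mean and SD. Ccnd1 is highest on day 3 (19.2 FPKM) and Rbl1 on day 7 (2.40 FPKM), and the 24 h samples are spread widely.

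The genes most like each member were listed over all samples of a table, by Pearson correlation of log2(FPKM + 1), as a description: the samples share groups, technical repeats and the shift of the median gene. Over the 33 cell samples Ccnd1 was nearest to Pitpna (0.981), Srebf2 (0.98) and Pam (0.974), and Ccnd2 to Pkd2 (0.969), Glg1 (0.965) and Bicc1 (0.961). Cdk2 was nearest to Kars, Rbmxl1 and Mcm7, and Rbl1 to Tmpo, Ndc1 and Rbmxl1, so Rbmxl1 was on both lists. Cdk4 was nearest to Otub1, Cyth2 and Clic1, whereas Cdk6 was nearest to Strn, Atp2b1 and Foxp1. Rb1 stood with Lrrc58, Apbb2 and Abi1, Ccne1 with Fig4, Ints5 and Enkd1, Ccne2 with LOC108167440, Myo9a and Urb1, and Ccnd3 with Lcmt2, Gng7 and Slc35f2. Over the 18 livers Rbl1 was nearest to Uhrf1 (0.966), Asf1b and 2810417H13Rik (0.964), Cdk6 to Mycl (0.961), Smo and Tmem30b, and Ccnd1 to Mex3d (0.907), Fntb and Zfp609.

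The genes lie apart in the genome: on GRCm38.p6 Ccnd1 is at chr7:144929931-144939831 and Ccne1 at chr7:38097984-38107490 on the same chromosome, Cdk4 at chr10:127063535-127067288 and Cdk2 at chr10:128697938-128705051 on another, and the other 6 on chromosomes of their own, with Rbl1 at chr2:157145893-157204534 and Rb1 at chr14:73192858-73325951. These coordinates span the whole RefSeq gene, exons and introns together.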

How the data were processed

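Poly(A) RNA of 33 cell samples and 18 liver samples was sequenced in paired ends. Per the labels, the authors aligned reads to mm10 with TopHat 1.4.1 and used Cufflinks 1.3.0, as the submitters' processing notes list them. The tables the authors deposited name no unit in the sources used here, and their values were taken as FPKM. Values were whole multiples of 1 read for 18826 of 18828 genes above 0 in the cells and 17327 of 17329 in the livers, and reads were recovered from these steps. A table of 9 other samples, 3 of primary hepatocytes and 6 of day 7 cultures, holds none of the 10 genes and was not used. No column of other samples was present.

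Tests used limma 3.58.1 (trend) in R 4.3.3 on log2(FPKM + 1), with all groups of a table in 1 fit, on the 12328 cell and 11114 liver genes that reached 1 FPKM in 3 or more samples. P-values were adjusted over all genes tested by Benjamini-Hochberg. Calls needed a 2-fold change or more and an adjusted p under 0.05. The fit was tested on simulated data. Cell and liver tables were fitted apart.

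Each member was described in every group, and from each pathway or marker list up to 2 called genes per direction with the largest change were named, and for members with at least a 4-fold range the 3 genes most correlated with them. The members, lists and tests were chosen with earlier results of these data known. Alternatives were quantile normalization, voom on recovered reads, a pseudocount of 0.1, no filter, a 1.5-fold threshold, a replicate block, leaving out each sample and leaving out clone-1. Counts of list genes without clone-1, and of members without Ccne2 (cells) or Rbl1 (livers), were added after seeing the data. Intervals and floors cover counting error only. Same-numbered replicates did not deviate together, so replicate numbers were not used for pairing. Plots used matplotlib 3.10.9.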

Additional observations from a re-analysis of the deposited data

Results flagged for a closer look

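The change from IL6-iHPCs to IL6-iMHs differed between passage 35 and passage 10 of the mouse-1 line for 6 of the 10 genes, by a limma contrast of the 2 changes in which 24.1% of all genes were called in the same direction. The difference, in log2 units, was -1.23 for Ccnd1, -1.23 for Ccnd2, -2.01 for Ccne1, -2.40 for Cdk4, -1.75 for Cdk2 and -2.44 for Rbl1, each a lower change at passage 35 than at passage 10, where Cdk4 was 0.15 higher after maturation. After quantile normalization 4 members were called, against 28.3% of genes in either direction, with Ccnd1 (-0.98) and Ccnd2 (-0.81) under 2-fold. The contrast uses the same progenitors as the comparison of passages. For Cdk4 those progenitors had 53.5 FPKM at passage 10 and 266 at passage 35, and the matured cells 59.7 and 55.3. All 3 samples of each group were repeats of 1 culture, so culture and passage cannot be told apart.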

How the results depend on the processing

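Of 1830 values of single genes under the alternatives, 1749 stayed called or stayed uncalled, 55 became called, 25 lost their call and 1 called value changed sign. That value was the Cdk2 change at day 14 against hepatocytes, which was -0.00221 after quantile normalization. A change of sign in a value that neither fit called was not counted as a reversal. After quantile normalization 5 members were called at day 14, 3 in IL6-iMHs against IL6-iHPCs, 3 in IL6-iMHs against hepatocytes, 1 at PHX-D3 and 0 at PHX-D7, and the cause was not tested. A 1.5-fold threshold called 8 in IL6-iMHs against IL6-iHPCs (52.5% of genes), 9 between P35 and P10 (55.3%; 8 without Ccne2), 2 at PHX-6h (35.7%) and 2 at PHX-D7 (19.2%; 1 without Rbl1). A pseudocount of 0.1 and voom each called 8 between P35 and P10 (42.7% and 44.9% of genes; 7 without Ccne2) and 2 at PHX-6h (26.3% and 27.2%), and the cause was not tested. Leaving out 1 sample at a time gave 0 to 1 call at PHX-6h, 0 to 2 at PHX-24h and 0 to 2 at PHX-D3. With all samples 16.3%, 7.90% and 5.82% of genes were called in these comparisons, in that order. Without the second 24 h library 6.15% were called at PHX-24h, and without the second normal liver 4.82% at PHX-D3. Ccnd3 at day 14 and in passaged IL6-iHPCs fell under 2-fold without hepatocyte replicate 3 (0.97 and 0.94). With a replicate block 115 of 115 values of single genes kept their call and no count changed; same-numbered samples correlated above 0.1 in 33 of 165 pairs in the cells and 7 of 45 in the livers, so the numbers do not pair the samples. Reads limit Ccne2 most, with 5 reads in each hepatocyte library.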
